A study of Homo sapiens with 6 samples.

Results

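Translation initiation factors were examined in NCI-H1975 cells, an established human lung adenocarcinoma (LUAD) line, as alternative splicing (AS) events whose gene symbol begins with EIF and a number from 1 to 6. An event entered when its junction reads, summed over both splice forms, averaged at least 10 over the 6 libraries. By this rule 501 events of 46 genes were analysed, of 66396 events of 10147 genes that met the same minimum. They were 329 skipped exons (SE), 76 pairs of mutually exclusive exons (MXE), 44 alternative 3ʹ splice sites (A3SS), 21 alternative 5ʹ splice sites (A5SS) and 31 retained introns (RI). Another 8 A3SS events, of EIF3B, EIF3G, EIF3H, EIF3I, EIF4A1 and EIF4G2, had count lists that could not be read without doubt and were not analysed here, and 27 events fell below the minimum. Just inside it stood EIF3M and EIF2A events with means of 10.3, 10.8 and 11.5 reads, and just outside it EIF2A, EIF3E and EIF4G1 events with 8, 7.5 and 7 reads.

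The cells carried PCDNA3.1-SAM68, a plasmid that expresses the RNA-binding protein SAM68, or the empty PCDNA3.1 plasmid as control. Both groups shared the cell line, the 2 µg of plasmid per well, the lipofectamine 2000 reagent and the 48 h before RNA was taken, and each had 3 libraries, which the study's methods describe as biological replicates. The replicate numbers below give the place of a library in the deposited lists and are not tied to a labelled replicate. Model p-values set a difference against a spread between these libraries that is drawn in part from other events or genes. For events this shared part outweighs the event's own spread. The SE table held 16951876 to 19737729 junction reads per library, and the initiation factor events 512807 to 598718. KHDRBS1, the gene of SAM68, was read at 311, 328 and 316 junction reads per 1000000 (rpm) in the controls and at 1230, 1260 and 1276 rpm in the SAM68 libraries, a log2 fold change of 1.98 ± 0.05 (SE, n = 3 per group; limma, adjusted p = 1.16e-21). Of 18 marker genes, the epithelial keratins KRT7, KRT8 and KRT18 and CD68, of macrophages, had a listed event. KRT8 was at 519.6, 253 and 236 rpm in the controls and 248, 235 and 229 rpm with SAM68, so that control replicate 1 stood apart from the other 5 libraries. KRT7 was at 4.48, 3.02 and 3.51 against 1.26, 1.83 and 2.2 rpm, with no overlap (limma, adjusted p = 0.383), and KRT18 at 471, 484 and 492 against 521, 524 and 530.1 rpm, higher with SAM68 and also with no overlap (adjusted p = 0.305). CD68 was at 92.0 to 104 rpm over the 6 libraries. The part of these differences in the results below was not tested.

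Translation begins when initiation factors bring the initiator Met-tRNA and the small ribosomal subunit to an mRNA. eIF2 carries the initiator tRNA and is recharged by eIF2B, eIF3 organises the small subunit, and the eIF4F complex of eIF4E, eIF4G and the helicase eIF4A binds the cap and prepares the leader for scanning. EIF1 and EIF1AX set the choice of start codon, EIF5 and EIF5B lead to subunit joining, and kinases of the EIF2AK family slow initiation under stress by phosphorylating eIF2.

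The sequences below show the places where the data of these genes turn on small differences in splice site. The first lines give acceptor sites (the end of the intron, then the exon), with the bases between both acceptors in capitals. These bases belong to the mRNA when the upstream acceptor is used, and AG stood before each acceptor of each pair. All positions are hg38.

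EIF4A1 exon 3, chr17:7574522-7574562, plus strand: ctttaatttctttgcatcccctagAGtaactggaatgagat

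EIF4A1 exon 5, chr17:7576500-7576544, plus strand: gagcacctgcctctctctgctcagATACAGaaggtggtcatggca

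EIF2B4, chr2:27369195-27369236, minus strand: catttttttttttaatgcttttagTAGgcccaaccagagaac

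EIF4A2, chr3:186784405-186784446, plus strand: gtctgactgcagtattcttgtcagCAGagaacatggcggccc

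EIF4ENIF1, chr22:31447551-31447592, minus strand: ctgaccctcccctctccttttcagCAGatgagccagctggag

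EIF4G1, chr3:184323381-184323422, plus strand: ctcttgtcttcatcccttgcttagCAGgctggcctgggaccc

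EIF4G3, chr1:20950094-20950135, minus strand: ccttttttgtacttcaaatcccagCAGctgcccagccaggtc

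The next lines give exons whose inclusion stood apart between the groups in the events named below, each with 20 bases of intron on both sides. In EIF4H and EIF4G1 the capitals mark the exon, and in EIF4A2 they mark the 4 bases that only its longer form holds.

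EIF4H exon 5, chr7:74190227-74190326, plus strand: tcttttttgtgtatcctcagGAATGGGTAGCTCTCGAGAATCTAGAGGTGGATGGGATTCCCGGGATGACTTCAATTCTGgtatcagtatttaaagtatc

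EIF4G1 exon 4, chr3:184316112-184316238, plus strand: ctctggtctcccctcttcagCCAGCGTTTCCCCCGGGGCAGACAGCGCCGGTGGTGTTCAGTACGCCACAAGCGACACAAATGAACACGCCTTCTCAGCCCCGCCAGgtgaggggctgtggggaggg

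EIF4A2 alternative exon, chr3:186788290-186788440, plus strand: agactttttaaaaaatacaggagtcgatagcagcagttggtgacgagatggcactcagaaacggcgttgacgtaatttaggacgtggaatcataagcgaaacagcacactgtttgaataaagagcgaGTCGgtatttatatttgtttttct

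The last line gives, in capitals, the 82 bases of intron that separate exons 5 and 6 of EIF3I, a pair that is listed as mutually exclusive.

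EIF3I intron 5, chr1:32226306-32226417, plus strand: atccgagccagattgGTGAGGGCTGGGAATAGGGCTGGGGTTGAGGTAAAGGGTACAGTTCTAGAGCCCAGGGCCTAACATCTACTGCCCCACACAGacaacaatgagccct

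The percent spliced in (PSI) is the share of the inclusion form after the reads of each form were divided by its effective length. Most initiation factor events showed a single form in nearly all transcripts. Of the 501 events, 301 had a mean PSI above 95%, 95 had one below 5%, and 105 lay between. The median absolute difference between the group means was 0.382 points, beside 1.24 points over all tested events. The initiation factor events were also read more deeply, with a median of 565 reads per library against 111.3. Among events with at least 100 reads and a mean PSI of 5 to 95%, the medians were 2.42 points in 81 initiation factor events and 2.47 points in 8264 events of all genes. MXE pairs made up 45 of these 81 and 4108 of these 8264. The 5 events of 30 points or more, in EIF3M, EIF4A1 and EIF4G1, had at most 48.5 reads per library, and none passed the adjusted p.

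**Figure D1:**
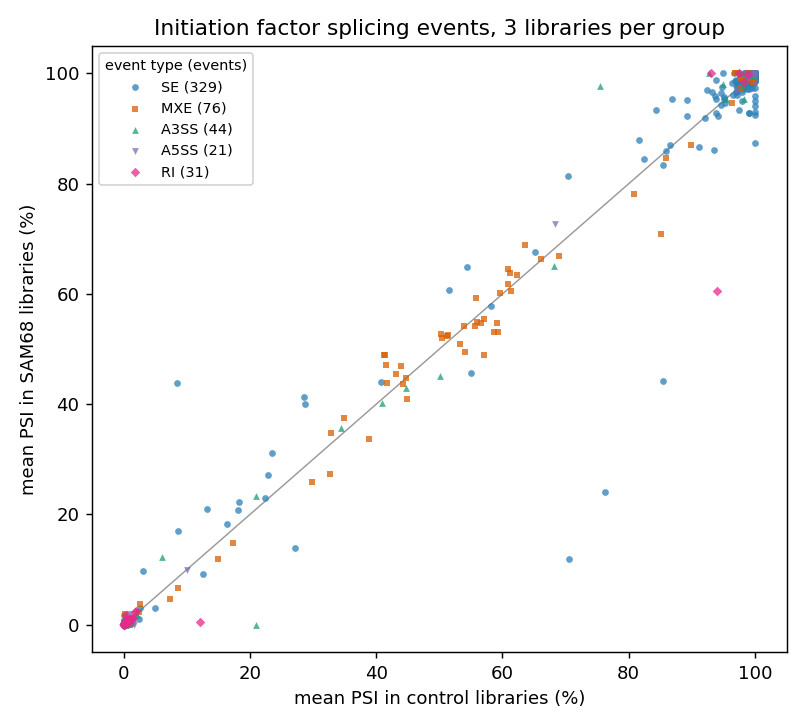
Mean PSI (%) of the 501 initiation factor events in the 3 control libraries (x axis) and the 3 SAM68 libraries (y axis), 1 point per event, with shape and colour for the event type and a line where both are equal. Most points sit at either end of the line, with 301 events above 95% and 95 below 5%.

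None of the initiation factor events had both an adjusted p under 0.05 and a change of at least 10 points, which 29 of all 66396 events had (0.0437%). At the adjusted p alone 5 of 501 passed (0.998%), in EIF3H, EIF3I and EIF4A1, against 98 of all events (0.148%). At an unadjusted p under 0.05 there were 48 (9.58% of the members, 5.61% of all events). The groups did not overlap in 51 events (10.2% of the members, 6.10% of all). With a difference of at least 5 points as well, this held for 15 (2.99% of the members, 3.14% of all). Among events with at least 100 reads and a mean PSI of 5 to 95%, an unadjusted p under 0.05 was found in 22.2% of 81 initiation factor events and 11.0% of all 8264, no overlap in 24.7% and 14.6%, and no overlap with 5 points in 11.1% and 8.65%. The initiation factor events of this range were still read more deeply, with a median of 463 reads against 227, and they share exons and junctions, so these shares are given as descriptions. The 5 passes depended on how the spread between libraries was estimated. None of them passed when each event kept its own spread, nor in a limma fit of logit-transformed PSI, and 3 passed when the moderation was set from all tested events.

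EIF3H and EIF3I encode subunits of eIF3, and in both the PSI of the upstream exon of a pair listed as mutually exclusive fell with SAM68. Annotated transcripts hold both exons of each pair together. The PSI here therefore compares reads on the junctions of each exon and need not mean that an exon was skipped. For EIF3I exons 5 and 6 (chr1:32226171-32226320 and chr1:32226403-32226530, both coding) the PSI of exon 5 was 62.04, 59.02 and 56.6% in the controls and 54.3, 53.9 and 51.03% in the SAM68 libraries. The lowest control library stood above the highest SAM68 library. The PSI fell by 6.17 points, from 59.2 ± 2.72% to 53.05 ± 1.76% (SD, n = 3 per group; quasi-binomial model with limma's moderation, adjusted p = 0.00574). With a library left out the change lay between -7.48 and -4.76 points, and the call was lost without control replicate 1 (adjusted p = 0.12), control replicate 2 (0.0519) or SAM68 replicate 3 (0.0805).

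The EIF3I exons lie side by side in the main transcript, and the MXE PSI compares the reads on the junctions of exon 5 to exons 4 and 7 with those of exon 6 to the same exons. The former numbered 1832, 1820 and 1710 in the controls and 1722, 1507 and 1419 with SAM68, while the latter numbered 1108, 1249 and 1296 in the controls and 1435, 1276 and 1346 with SAM68. Reads that skip an exon were counted in SE events. The junction of exon 4 to exon 6, which skips exon 5 alone, had 10, 8 and 5 reads in the controls and 7, 14 and 9 with SAM68. With these exon 5 was included at 99.5 ± 0.163% and 99.3 ± 0.292% (adjusted p = 0.706). The junction of exon 5 to exon 7, which skips exon 6 alone, had 0, 0 and 0 reads in the controls and 2, 0 and 0 with SAM68 (adjusted p = 0.706). The junction of exon 4 to exon 7, which skips both, had 30, 25 and 41 reads in the controls and 21, 42 and 28 with SAM68. Neither single skip passed the test.

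For EIF3H exons 2 and 5 the PSI of exon 2 was 57.5, 58.1 and 60.3% in the controls and 53.4, 55.1 and 50.99% with SAM68. The groups stood apart, and the PSI fell by 5.44 points (58.6 ± 1.47% against 53.2 ± 2.08%, SD, n = 3; quasi-binomial model, adjusted p = 0.00561). Without control replicate 3 the adjusted p was 0.0589, and without SAM68 replicate 3 it was 0.108. Reads that join the flanking exons directly numbered 2, 2 and 0 in the controls and 0, 1 and 5 with SAM68, and these skip both exons. Reads that skip only one of them lie within the counts of the MXE event and were not separated.

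Both exons of the pair stand in the same annotated transcript in 74 of the 76 MXE members. The annotation holds a junction between both exons of the pair in 60 of the 76 MXE members and lacks it in 16, beside 7646 pairs with it and 1145 without over all genes. The pairs with an annotated junction between both exons and at least 100 reads had a median PSI of 51.8% in the initiation factors (55 events) and 49.6% over all genes (4763 events). Their median difference was -0.03 points in the initiation factors and -0.17 points over all genes, and the PSI was lower with SAM68 in 28 of 55 and 2619 of 4763. The EIF3H pair is one of 12 initiation factor pairs of that depth without an annotated junction between both exons. Exons 2 and 5 of EIF3H are not adjacent and share an annotated transcript, so the missing junction does not make them exclusive. The 12 pairs had a median PSI of 37.6% and a median difference of -0.37 points, with a lower PSI in 9 of 12, beside a median difference of -0.23 points and a lower PSI in 350 of 603 over all genes.

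EIF4A1, the helicase of eIF4F, held the other 3 events past the adjusted p, all among exons 3 to 5 and none above 3 points. At exon 5, whose acceptors lie 6 bases apart (shown above), the upstream site took 98.9, 98.6 and 98.8% in the controls and 99.3, 99.3 and 99.8% with SAM68. It rose by 0.718 points (98.7 ± 0.153% against 99.5 ± 0.254%, SD, n = 3; quasi-binomial model, adjusted p = 0.0494, and 0.0993 with the moderation set from all tested events). The reads of the downstream site were 59, 86 and 66 against 41, 36 and 13. The adjusted p lost the threshold with 5 of 6 libraries left out in turn, reaching 0.646 without SAM68 replicate 3, and stayed under it only without control replicate 1.

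The listed MXE pair of EIF4A1 exons 3 and 4 (chr17:7574546-7574678 and chr17:7575119-7575258) is not independent of this, since its minor form joins exon 4 to the same downstream acceptor of exon 5. Its major form, with 3995, 4432 and 4088 reads in the controls and 5097, 4076 and 4425 with SAM68, has nearly the counts of the upstream exon 3 acceptor given below. The pair is thus not independent of that event either. That form had 67, 94 and 78 reads in the controls and 52, 40 and 21 with SAM68. The PSI of exon 3 rose by 1.05 points, from 98.1 ± 0.214% to 99.2 ± 0.3% (SD, n = 3; quasi-binomial model, adjusted p = 0.00633). Without control replicate 2 the adjusted p was 0.0801 and without SAM68 replicate 3 it was 0.121.

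The acceptors of EIF4A1 exon 3, which lie 2 bases apart, differed widely between control libraries. The downstream site had 173, 35 and 1 reads in the controls and 240, 218 and 196 with SAM68, beside 3995, 4426 and 4088 and then 5097, 4076 and 4425 reads of the upstream site. The same 6 counts of the downstream site stand in the RI table. Control replicate 1, at a PSI of 95.8% (Wilson 95% interval 95.2 to 96.4%), lay next to the SAM68 libraries at 95.5, 94.9 and 95.7%, apart from control replicates 2 and 3 at 99.2% and 99.98%. The PSI fell by 2.97 points (98.3 ± 2.21% against 95.4 ± 0.431%, SD, n = 3; quasi-binomial model, adjusted p = 0.0232). This call was absent with a moderation that lets an event keep an outlying spread (adjusted p = 0.767) and with one set from all tested events (0.282). It was also lost when any library but control replicate 1 was left out, and without that library the adjusted p was 9.93e-15 at a change of -4.23 points. EIF4A1 overlaps the readthrough gene SENP3-EIF4A1 on the same strand, and reads of both cannot be told apart.

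**Figure D2:**
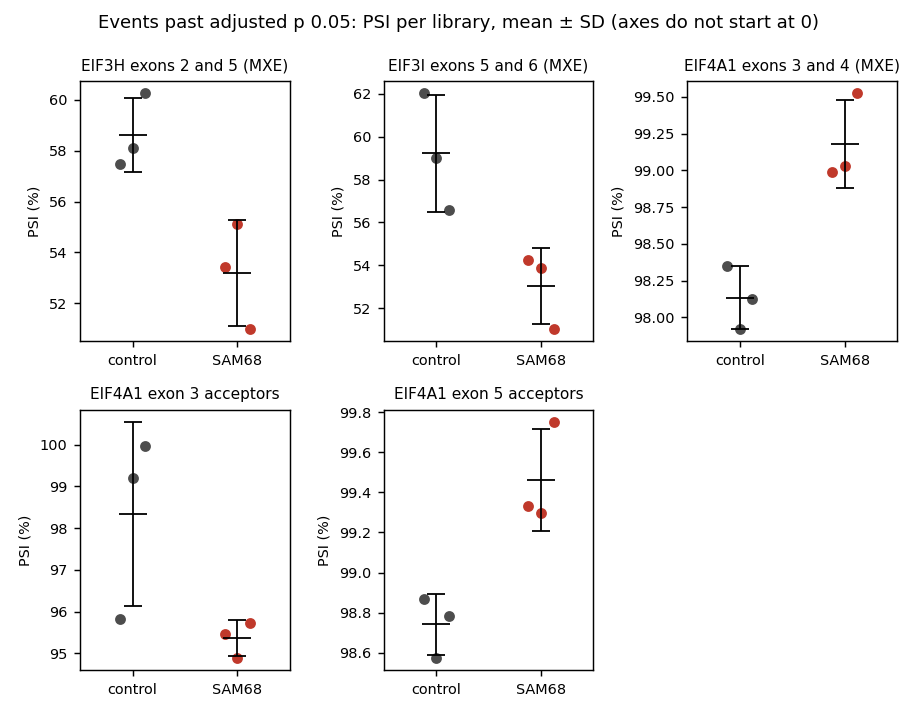
PSI (%) of the 5 initiation factor events past the adjusted p, 1 dot per library in the control (grey) and SAM68 (red) groups, with the mean and SD as bars and axes that do not start at 0. The groups do not overlap in any panel, and control replicate 1 of the EIF4A1 exon 3 acceptors, at 95.8%, sits beside the SAM68 libraries.

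Acceptors 3 bases apart, which add or drop a single amino acid where they lie in coding sequence, were listed for 5 initiation factors and were used in both forms in each. In EIF4G1, the scaffold of eIF4F, the upstream acceptor took 31.6, 37.98 and 33.4% in the controls and 35.2, 37.1 and 34.6% with SAM68, a difference of 1.29 ± 2.04 points (SE) at a mean of 976 reads. In EIF2B4, a subunit of the eIF2B exchange factor, it took 68.1 ± 7.79% and 65.1 ± 5.21%, and in EIF4G3, a paralogue of EIF4G1, 44.6 ± 7.22% and 42.95 ± 4.7% (SD, n = 3). EIF4A2, a paralogue of EIF4A1, used it in 20.96 ± 3.75% and 23.3 ± 10.7%. EIF4ENIF1, which carries eIF4E into the nucleus, stood at 50.1 ± 18.2% and 45.03 ± 8.32% with only 25.7 reads per library. The groups overlapped in each of these 5 pairs, and the adjusted p lay between 0.77 and 0.987.

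**Figure D3:**
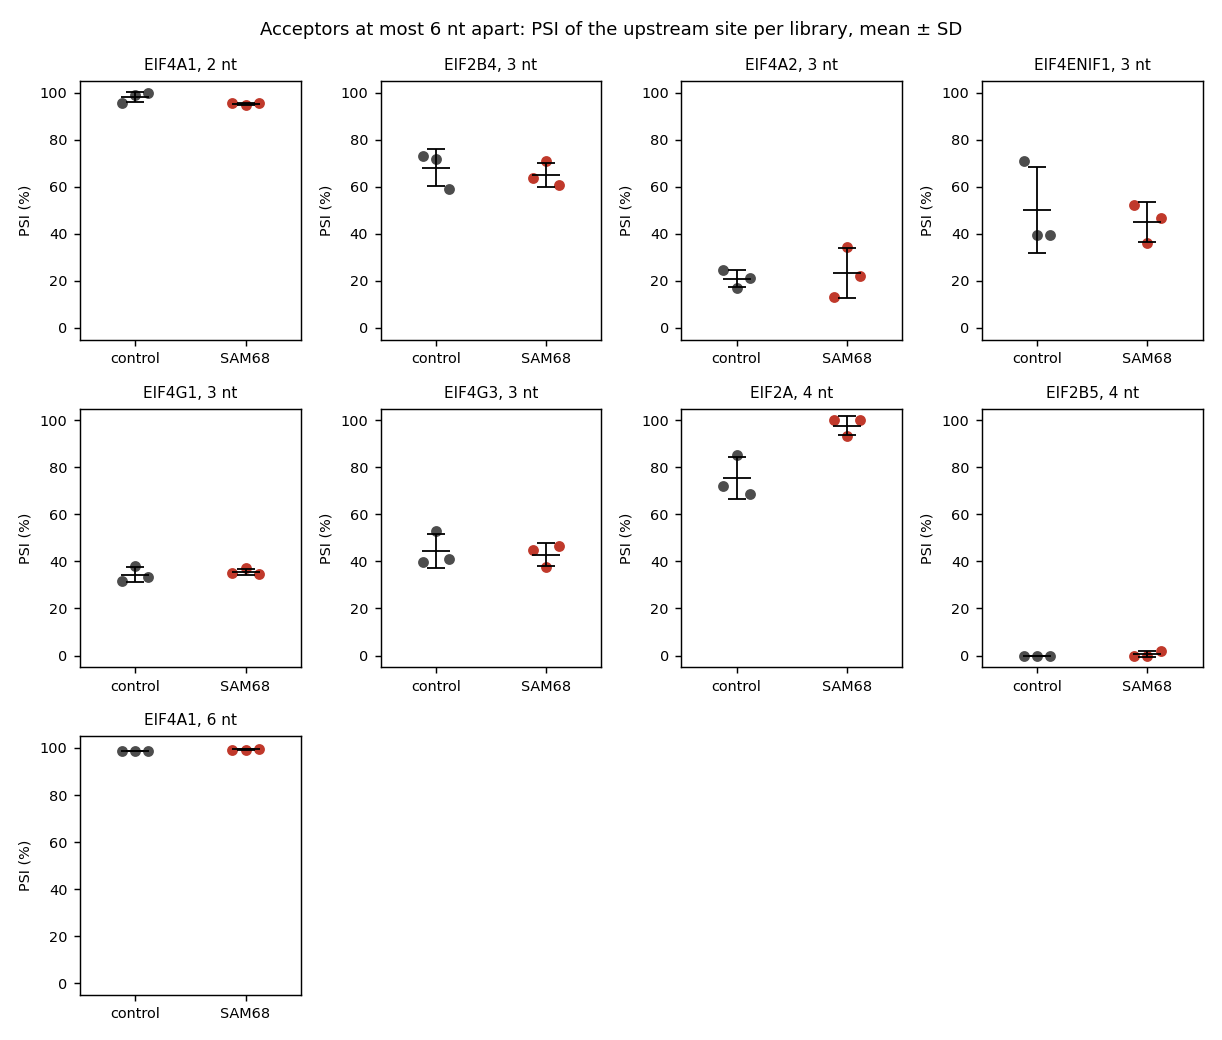
PSI (%) of the upstream acceptor for the 9 A3SS members whose sites are at most 6 bases (nt) apart, 1 dot per library in the control (grey) and SAM68 (red) groups, with the mean and SD as bars, all on 1 scale. The 5 pairs 3 bases apart overlap between the groups, while EIF2A, read 11.5 times per library, does not.

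EIF4G1 had 54 events over 30 alternative exons or sites, and 12 of them (22.2%) had an unadjusted p under 0.05, beside 5.61% of all events and 11.0% of those with at least 100 reads and a mean PSI of 5 to 95%. The groups did not overlap in 8 of the 54 (14.8%), beside 6.10% of all events and 14.6% of those in that range. Of the 12 events with an unadjusted p under 0.05, 10 sat at exons 2 to 6 of 33, 1 just before exon 4 and 1 at exon 14. Exon 4 (chr3:184316132-184316218, coding, shown above), against a skip with the same flanking exons, was at 68.3, 68.3 and 74.7% in the controls and 76.5, 83.1 and 84.5% with SAM68. The groups stood 10.95 ± 3.26 points apart (SE), a difference that did not pass (quasi-binomial model, adjusted p = 0.706). Another event of exon 4 was read at least as deeply and did not meet the limits for naming. In the listed MXE pair with exon 3, the PSI of exon 3 was 57.1 ± 2.51% in the controls and 49 ± 1.96% with SAM68 (SD, n = 3; quasi-binomial model, adjusted p = 0.253).

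The 60 bases before EIF4G1 exon 4, present when an upstream acceptor is used, were at 8.08, 2.48 and 7.82% in the controls and 8.53, 12.1 and 15.96% with SAM68 (adjusted p = 0.763). Exon 2 (chr3:184315489-184315545), an untranslated exon, was at 85.5 ± 25.2% against 44.2 ± 5.21% in the event named here, on 48.5 reads per library. Its skipping reads were 0, 0 and 27 in the controls and 21, 19 and 21 with SAM68. The counts of 0 allow up to 7.89% and 6.67% of the reads, and control replicate 3, at 56.4%, lay near the SAM68 libraries at 49.1, 44.7 and 38.7%. The adjusted p was 0.419 with all libraries and 0.000909 without control replicate 3, where the change was -55.8 points. Another event of exon 2 was read at least as deeply and did not meet the limits for naming. These EIF4G1 events share exons and junctions and are not independent of each other.

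**Figure D4:**
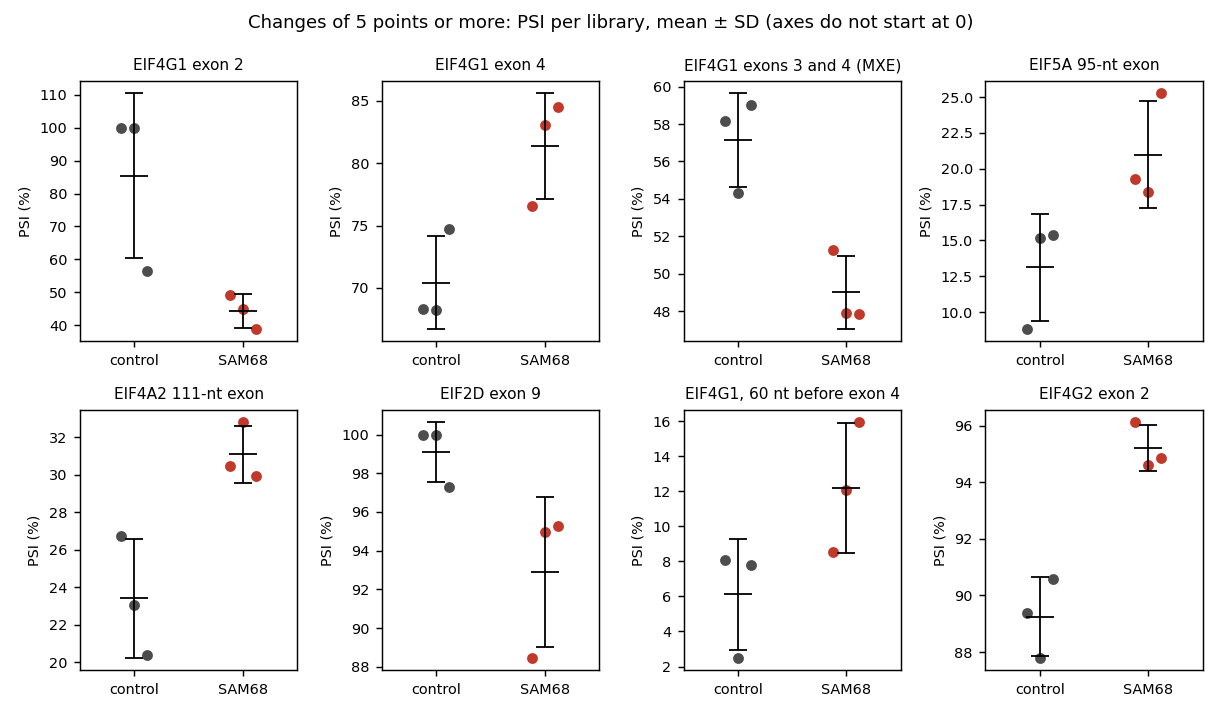
PSI (%) of the 8 further initiation factor events with an unadjusted p under 0.05, at least 20 reads, a difference of at least 5 points and no overlap, 1 dot per library in the control (grey) and SAM68 (red) groups, with the mean and SD as bars and axes that do not start at 0. In EIF4G1 exon 2 control replicates 1 and 2 stand at 100% and control replicate 3 at 56.4%.

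EIF4A2 carries a short alternative exon in a form of 107 bases and in one of 111 (shown above). The 111-base form was at 26.8, 23.1 and 20.4% in the controls and 30.5, 32.8 and 29.96% with SAM68. The groups stood 7.67 ± 2.04 points apart (SE), with an adjusted p of 0.275. The 107-base form, which the annotation places in a transcript subject to nonsense-mediated decay, was at 22.8 ± 0.575% and 27.1 ± 1.29% (adjusted p = 0.706). Both forms share their skipping reads, 381, 439 and 399 in the controls and 325, 297 and 295 with SAM68. Exon 4 of EIF4A2, chosen after its values were seen, was at 65.2 ± 0.557% and 67.6 ± 2.21%.

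EIF4H aids the helicase, and its exon 5 of 60 bases (chr7:74190247-74190306, coding, shown above) was included in 41.02, 40.5 and 40.6% in the controls and in 43.9, 43.6 and 44.5% with SAM68. The groups did not overlap, and the difference of 3.3 ± 0.295 points (SE, mean of 3138 reads) was larger than the spread of either group. It did not pass over all SE events (quasi-binomial model, adjusted p = 0.556; exact permutation p = 0.1, two-sided, the smallest that 3 against 3 libraries allow).

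EIF4G2, a relative of EIF4G1 that serves cap-independent initiation, had exon 2 of 65 bases (chr11:10807255-10807319) at 89.4, 87.8 and 90.6% in the controls and at 96.1, 94.6 and 94.8% with SAM68. The groups stood 5.95 ± 0.94 points apart (SE; adjusted p = 0.706), with skipping reads of 27, 33 and 24 against 8, 11 and 9. A 5ʹ splice site of exon 14, chosen after its values were seen, gave 68.3 ± 1.38% and 72.6 ± 2.41% (adjusted p = 0.665).

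EIF5A and EIF2D hold the other named events. EIF5A, named as an initiation factor, is known for its part in elongation and termination, and a 95-base noncoding exon (chr17:7308481-7308575) was at 8.82, 15.2 and 15.4% in the controls and 19.3, 18.4 and 25.3% with SAM68 (adjusted p = 0.706). Another event of this exon was read at least as deeply and did not meet the limits for naming. Reads of EIF5A and its near-identical copy EIF5AL1 may not be told apart. EIF2D, which can deliver tRNA to the ribosome without eIF2, had exon 9 (chr1:206599733-206599836) at 100, 100 and 97.3% against 88.5, 94.9 and 95.3%, on skipping reads of 0, 0 and 2 against 11, 3 and 3 (adjusted p = 0.706). The counts of 0 allow up to 2.68% and 2.86% of the reads.

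The remaining factors are given as levels. Of the 20 genes with an event of at least 100 reads nearest an even split, 18 were represented by an MXE pair, with mean PSI from 40.6 to 61.0% over the 20, and the groups overlapped in 16. In each of these 18 pairs an annotated transcript holds both exons. Their PSI compares reads on the junctions of both exons and need not be an even split between transcripts. EIF3B used the upstream acceptor of its last exon, outside the coding sequence, in 40.98 ± 0.92% and 40.2 ± 2.94%. Among skipped exons chosen after their values were seen, exon 4 of EIF6, which keeps ribosomal subunits apart, was at 86.6 ± 0.624% and 86.96 ± 0.659%, a difference of 0.349 ± 0.524 points (SE). Exon 3 of EIF4E2, a cap-binding relative of eIF4E, was at 85.9 ± 4.63% and 85.9 ± 1.06%, and exon 2 of EIF3M, an eIF3 subunit, at 85.4 ± 1.13% and 83.4 ± 2.41%. Another EIF4E2 exon (chr2:232574263-232574341), read less, was at 30.6, 27.3 and 28.5% in the controls and 34.7, 42.2 and 43.3% with SAM68 on 52.3 reads, with no overlap (unadjusted p = 0.197, adjusted p = 0.706). EIF4G3 exon 6 was at 16.3 ± 5.52% and 18.3 ± 2.64%.

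By role, the cap complex held 169 events in 9 genes, of which 3 passed the adjusted p, 29 had an unadjusted p under 0.05 (17.2%, beside 5.61% of all events) and 21 did not overlap (12.4%, beside 6.10%). The 12 genes of eIF3 held 143 events, of which 2 passed, 5 had such a p (3.5%) and 14 did not overlap (9.79%). No event passed in eIF2 (15 events), eIF2B (70), the eIF2 kinases (29), EIF2A and EIF2D (19), the factors of scanning and start codon choice (14), EIF5A, EIF5A2 and EIF6 (23), the eIF4E-binding proteins EIF4EBP1 and EIF4ENIF1 (10), the exon junction helicase EIF4A3 (1) or EIF1AD (8). An unadjusted p under 0.05 was found in 21.1% of the EIF2A and EIF2D events and 17.4% of those of EIF5A, EIF5A2 and EIF6. No overlap was found there in 21.1% and 30.4%. In the other roles without a pass both shares were at most 7.14%. The roles differ in depth, with median reads from 36.7 in the eIF4E-binding proteins to 1286 in eIF3. Of 31 RI events, 24 had at least 100 reads and a PSI under 5% in each library, a range that itself limits the change, and these moved by at most 1.45 points. Of the other 3 with that depth, those of EIF2A and EIF4A1 stayed above 95%, and the one of EIF4A1 that ends at the exon 3 acceptors was at 0.288, 2.78 and 33.3% in the controls and 0.415, 0.229 and 0.759% with SAM68. The value of control replicate 3 there rests on 1 inclusion read and 1 skipping read.

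SAM68 binds RNA at short A- and U-rich motifs, so the letters TAAA and TTAA were counted on the transcript strand in each skipped exon and 100 bases on either side. The counts of both motifs may overlap. Of 254 distinct exons of the initiation factors, 75.6% had TAAA and 79.5% had TTAA in this window. Over all 38685 exons of tested SE events these shares were 66.2% and 66.5%. The densities were 6.43 and 6.2 sites per 1000 bases in the initiation factors and 5.25 and 5.13 over all exons. EIF4A2 had 5 TAAA and 2 TTAA around its alternative exon, with 4 of the TAAA upstream. EIF4H had 1 and 2, all downstream of exon 5, EIF4G2 exon 2 had 0 and 3, EIF2D exon 9 had 1 and 0, and EIF4G1 exon 4 had none of either. A match to these letters is a description of the sequence and not a binding site. The share of exons with a length divisible by 3 was 39.0% in the initiation factors and 40.5% over all exons.

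The amount of spliced transcript was followed with the reads of each gene's most read event, in rpm. In bulk RNA, less RNA per cell and fewer cells with the transcript cannot be told apart. Of 46 initiation factor genes 1 passed the adjusted p (0.414% of all 10147 genes did in either direction, and 0.296% as lower with SAM68), 10 had an unadjusted p under 0.05 (12.1% of all genes) and 14 did not overlap (16.8% of all). The 10 became 4 to 11 with a library left out and 5 without the trend in limma. Over all genes the 1224 with such a p became 888 to 1266 and 983. Over all genes the passes were 30 lower and 12 higher with SAM68 when scaled by the total of these reads in each library, and 11 lower and 16 higher when scaled by median-of-ratios size factors. The 42 passes under the former scaling became 4 to 101 with a library left out and 1 without the trend in limma. Of the 46 genes, 24 were higher and 22 lower in value, with a median log2 fold change of 0.00044 beside -0.03 over all genes.

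EIF5A was the gene that passed. Its junction reads were 848, 805 and 818 rpm in the controls and 687, 758 and 610.1 rpm with SAM68, and its level fell by 0.27 on the log2 scale (SE 0.06; limma, adjusted p = 0.0255). The call was lost when any library but SAM68 replicate 2 was left out, with adjusted p from 0.0508 without SAM68 replicate 3 to 0.253 without control replicate 1, and the next most read event of EIF5A differed by 0.0024 on the log2 scale. EIF4G3 stood at 74.6, 72.2 and 72.4 rpm against 59.96, 47.5 and 59.4 rpm, with a log2 fold change of -0.40 ± 0.10 (SE) that did not pass (limma, adjusted p = 0.0807), and its next most read event gave -0.03. Its adjusted p was 0.046 without SAM68 replicate 3. EIF5B (-0.26), EIF3A (-0.22) and EIF2B1 (-0.18) were the other lowest log2 fold changes. EIF2D (0.33), EIF1AD (0.26), EIF2B3 (0.23), EIF2AK2 (0.19) and EIF2B2 (0.17) were the highest, with adjusted p from 0.246 to 0.615. The order of these values is not firm. EIF5B was at -0.15 without control replicate 1 and -0.39 without SAM68 replicate 3, EIF2B1 at -0.11 without control replicate 2, and EIF2AK2 between 0.08 without SAM68 replicate 3 and 0.32 without SAM68 replicate 1. With the next most read event EIF2D was at 0.10, EIF2B3 at 0.13 and EIF2B1 at -0.08, and EIF3A and EIF2AK2 changed sign.

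**Figure D5:**
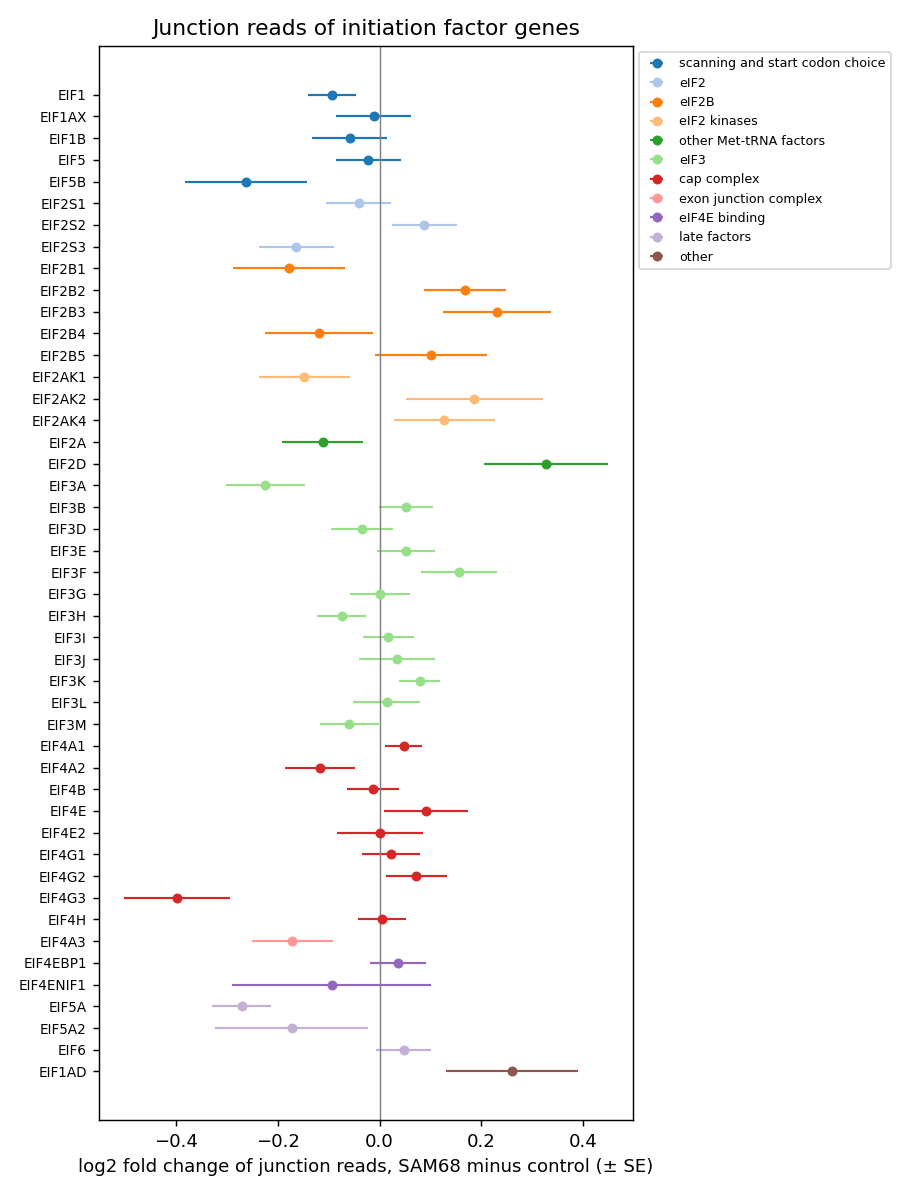
Log2 fold change of junction reads (SAM68 minus control, x axis) of the 46 initiation factor genes, 1 point per gene with its SE as bar, grouped and coloured by role. The genes lie between -0.40 (EIF4G3) and 0.33 (EIF2D), and EIF5A, at -0.27, is the gene past the adjusted p.

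Of 25 other genes of the initiation pathway, 21 could be measured, among them PABPC1, the poly(A)-binding protein, DDX3X and DHX29, helicases of scanning, MTOR and RPS6KB1, kinases that act on the pathway, and ATF4, a target of eIF2 phosphorylation. None passed the adjusted p by limma, and 4 had an unadjusted p under 0.05 (19.0%, beside 12.1% of all genes), PAIP2, PDCD4 and MKNK2 with lower values and MCTS1 with higher ones. With a library left out that count was 2 to 6. The groups did not overlap in 2 of the 21 (9.52%, beside 16.8% of all genes). PAIP2, an inhibitor of PABPC1, was at 132, 120 and 133 rpm in the controls and 99.9, 105 and 113 rpm with SAM68 (log2 fold change -0.28 ± 0.08, SE; limma, adjusted p = 0.125). PDCD4, which holds eIF4A back, differed by -0.35 ± 0.17 (limma, adjusted p = 0.409), and by -0.61 in its next most read event. The value of MCTS1 was 0.20 in its most read event (0.10 to 0.29 with a library left out) and -0.05 in the next, so its direction depends on the event.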

How the data were processed

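The authors trimmed and filtered paired-end reads of RNA from 6 samples, aligned them to GRCh38 and ran rMATS. The submitters' processing notes name CASAVA 1.4, fastp 0.20.0 and HISAT2 2.1.0. The authors deposited 5 tables with lists of raw junction read counts, inclusion levels, effective lengths, and the p-value, FDR and level difference of their own test, which were not used. The lists carry no sample names or replicate numbers, and the controls were taken as the list given first, since the inclusion levels of PKM in the lists match those that a figure of the study labels by group. The direction of KHDRBS1 was known from earlier results of these data and is a check, not independent evidence. Digits were regrouped in 275 A3SS lists, as a spreadsheet does with commas, and 163 were recovered where 1 division into 3 counts gave the listed inclusion levels.

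PSI was computed per library. Tested events were fitted with a quasi-binomial model of both counts. Pearson dispersions were moderated within each event type by squeezeVar (R 4.3.3, limma 3.58.1) and not taken below 1, followed by an F test and the Benjamini-Hochberg adjustment over all events of a type. The prior came from events with both forms read in each library. This choice was made after results of these data and of simulated data had been seen, and it gives more passes (5 initiation factor events) than a prior from all tested events (3). The script was tested on simulated data whose spread was set near the observed one, so that test does not favour either prior independently. Gene levels are log2(rpm + 0.5), tested with limma (eBayes with trend), where rpm is per 1000000 reads of the most read events. Positions and exon numbers come from GENCODE 44, in which 46 of 46 gene identifiers were found, and sequences from hg38. Without molecular identifiers, the Wilson intervals and the limits for a 0, set at 3 reads, describe counting error alone.

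The members, gene lists and tests were chosen with earlier results of these data known. The events named are those past the adjusted p, those with an unadjusted p under 0.05, at least 20 reads, 5 points or more and no overlap, and, as levels, the event nearest an even split of each of 20 genes. An exon could be named from an event that met these limits though a more deeply read event of the same exon did not. The genes named are those past the adjusted p and the 5 highest and 5 lowest. Libraries of a group differed from each other by more than sampling noise (chi-square per degree of freedom 3.15 to 4.56), so none was counted as a duplicate. Of the marker lists, 3 of 6 epithelial genes, 1 of 8 genes of other cell types and none of 4 alveolar genes had a value.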

Additional observations from a re-analysis of the deposited data

How the results depend on the processing

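With 3 libraries per group the exact permutation test cannot go below 0.1, and small counts limit the events under 50 reads. No paired analysis was possible because the lists carry no replicate numbers. Of 501 initiation factor events, 0 were called; with a limit of 5 points the count was 2, and with a library left out it was 0 to 1 (1 without control replicate 3). Of the 5 past the adjusted p, the count became 0 with unmoderated spreads, 0 in a limma fit of logit-transformed PSI and 3 with the prior from all tested events, an alternative chosen after seeing the data. With a library left out the count was 0 to 4, with 1 without control replicate 2, 3 without SAM68 replicate 1 and 0 without SAM68 replicate 3. The 15 events without overlap at 5 points became 5 at 10 points and 18 to 25 with a library left out, which makes non-overlap easier by construction (all events: 2084, then 3783 to 4095). The 1 gene past the adjusted p became 0 with median-of-ratios size factors, with the next most read event, without the trend and with a limit of 1 on the log2 scale, and 0 to 1 with a library left out (EIF5A without SAM68 replicate 2, EIF4G3 without SAM68 replicate 3). With the next most read event EIF5A reversed to 0.0024, EIF3A to 0.071 and EIF2AK2 to -0.089. Over all events the 98 passes became 2, 4 and 65 under those settings, and 48 to 99 with a library left out, and the 29 calls became 2, 3 and 18, and 18 to 39. KHDRBS1 and the pathway genes stayed on their side of the threshold in each alternative run, at 1.96 to 2.04 and at 0. The cause of these changes was not tested.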
